A study of Mus musculus with 12 samples.

Results

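The genes described here are 9 of the 27370 genes named on the array, all of the vessel wall or of blood clotting, in mouse hippocampus after injection of lipopolysaccharide (LPS): Icam1, Vcam1, Sele, Selp, Pecam1, Vwf, Lrg1, Thbd and F10. Their probes were taken by the gene name in the array files, which gave 16 of 41174 transcript probes. A probe is called measured where every one of the 3 arrays of some group had it well above background, which held for 11 probes of 8 genes. The single probe of Sele was not among them.

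The animals were C57BL/6N males, 12 weeks old, whose left dorsal hippocampus had been injected with kainate (50 nl at 20 mM), a glutamate receptor agonist that brings on epilepsy. After 3 weeks, when seizures recurred, saline or LPS was given once into the peritoneum, and whole hippocampus was taken 4 or 24 h later. The LPS, from Salmonella enterica serotype abortus equi, was given at 100 µg/kg. The 4 groups, called saline 4 h, LPS 4 h, saline 24 h and LPS 24 h, have 3 samples each. Every saline control had also received kainate and no group without kainate is part of the comparisons. The labels do not say which hippocampus was used, and that the 3 samples of a group are separate animals rests on the study's design text alone, so that p-values measure the spread between these samples.

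Leukocytes leave the blood in steps. Selectins on activated endothelium catch them, integrins on the leukocyte then bind ICAM-1 and VCAM-1 on the vessel wall, and PECAM-1 at the endothelial junctions takes part in the passage between cells. The same endothelium stores von Willebrand factor, which tethers platelets, and displays thrombomodulin, which turns thrombin from a clotting enzyme into an activator of the anticoagulant protein C. In brain vessels, inflammatory cytokines and LPS are known inducers of the adhesion molecules.

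Each level below is a log2 signal with 0 at the 75th percentile of its array, so that 1 unit is a doubling. That percentile rose from 365.3 ± 12.3 intensity units (SD, n = 3) in saline 4 h to 663.3 ± 33.6 in LPS 4 h. It was 769 ± 60.7 in saline 24 h, against 820 ± 116 with LPS. Between 54.6% and 69.7% of probes per group were well above background on average, and 0 spots were saturated. The 12 arrays lie on 6 slides, and every slide pairs a saline with an LPS array of one time. The 4 h and the 24 h slides were scanned in different sessions, so that the time after injection and the scan session cannot be told apart. Differences are given with the standard error (SE) of a limma fit, and a probe is called where its p, adjusted over all 27681 measured probes by Benjamini and Hochberg, was under 0.05. The number of arrays limits the precision of each value.

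The F10 probe was among the measured probes only because its LPS arrays were above background. It had to be higher after LPS, so it is described without a test and left out of the counts of members, a choice made after seeing the data. That leaves 10 probes of 7 genes. At 4 h, 7 of the 10 probes were higher after LPS, 2 were lower and 1 passed in neither direction, in a comparison that called 71.0% of all probes, 31.6% higher and 39.4% lower. By the leading probe of each gene, the one with the highest mean signal, 5 of 7 genes rose and 2 fell, where 29.1% of all genes rose and 44.3% fell. At 24 h, all 10 probes and all 7 genes were higher after LPS, in a comparison that called 41.7% of all probes, 20.8% higher and 20.9% lower, and 22.8% of genes higher and 22.0% lower. The arrays of LPS and saline did not overlap for 9 of the 10 probes at 4 h and for 10 at 24 h, where this held for 74.6% and 53.7% of all probes. The median log2 difference of the 7 genes was 0.83 at 4 h and 0.86 at 24 h, against -0.15 and 0.00 over all genes. The members shared a direction at 24 h but not at 4 h. They, like the gene lists further below, were chosen with earlier results of these data known. Their counts beside the shares over all probes and genes are therefore a description and not a test.

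**Figure D1:**
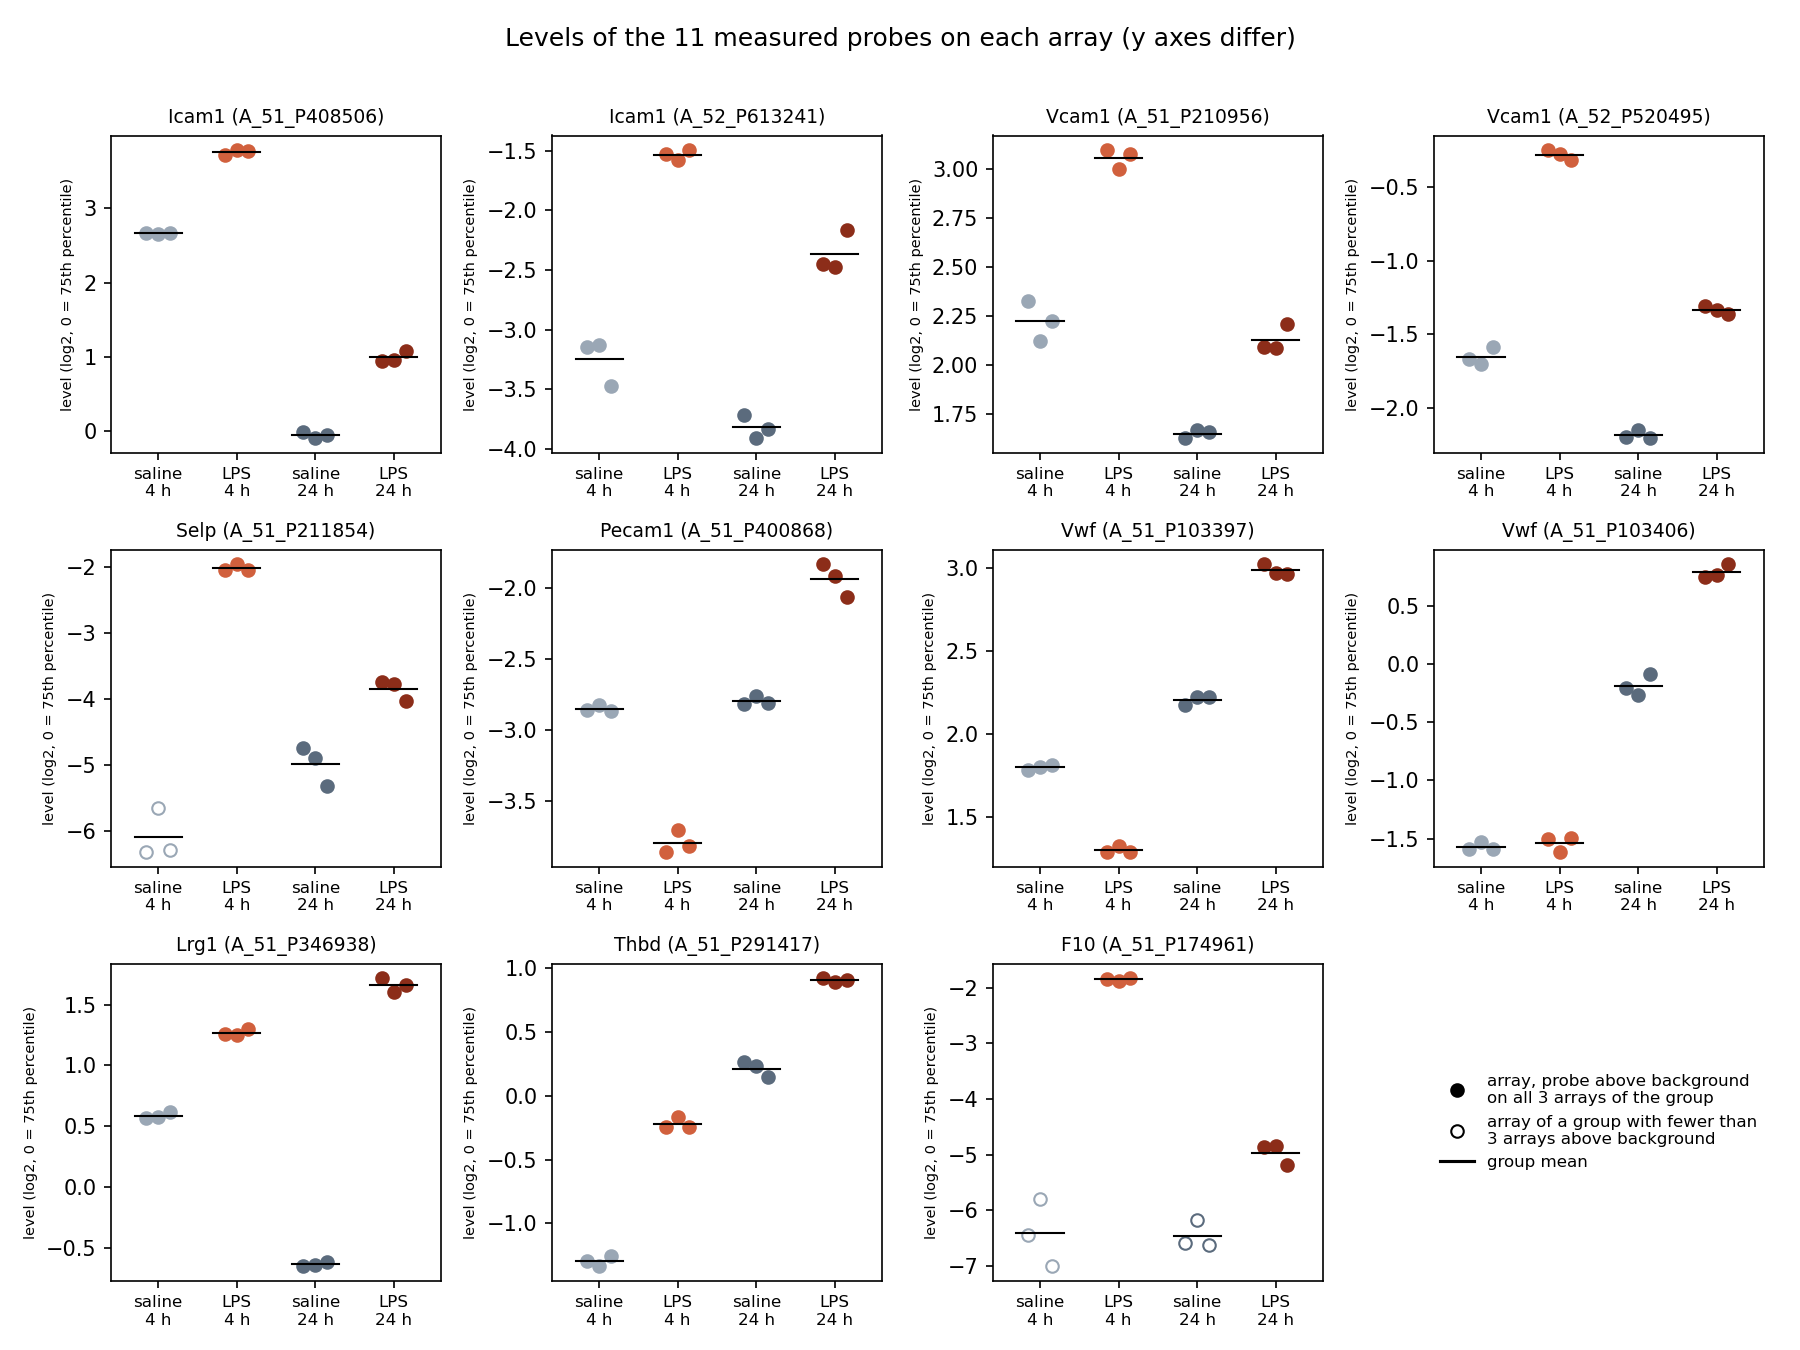
Level of each measured probe (y axis, log2 with 0 at the 75th percentile of the array) on the 3 arrays of each group (x axis), with a line at the group mean. Open circles mark groups in which fewer than 3 arrays were well above background. Selp and F10 stand out by their saline 4 h arrays, which were below background, and for Pecam1 and the leading Vwf probe the LPS 4 h arrays are the lowest.

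Among the ligands of leukocyte integrins, Icam1, which binds the β2 integrins, rose at both times on both of its probes. The leading probe (A_51_P408506) lies at chr9:20833186-20833245 of mouse build mm9, and the other (A_52_P613241) starts 896 bases before it, at chr9:20832290-20832349, both on the plus strand. The sequence of the second probe is shown because it lies in the coding part of the transcript and reads a different piece of the mRNA from the leading probe.
Icam1 A_52_P613241: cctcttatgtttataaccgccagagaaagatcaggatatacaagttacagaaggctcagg

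On the leading Icam1 probe the level was 2.66 on all 3 saline 4 h arrays, and 3.72, 3.79 and 3.78 on the LPS 4 h arrays. Saline 24 h arrays stood at -0.01, -0.10 and -0.05, and LPS 24 h arrays at 0.94, 0.96 and 1.08. The LPS arrays lay above the saline arrays of their time without overlap. The rise was 1.10 ± 0.04 (SE) at 4 h, or 2.15-fold, with an adjusted p of 1.01e-08. It was 1.05 ± 0.04 at 24 h, or 2.07-fold, with an adjusted p of 7.13e-08. Over all probes, 65.9% had responses called different between the times, and 68.5% of genes. The Icam1 rises differed by -0.05 on this probe, with a 95% interval from -0.18 to 0.08 and an adjusted p of 0.464. A difference between the times was thus not detected on it, while with quantile scaling it was called (-0.19, adjusted p of 0.0194).

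The second Icam1 probe rose by 1.72 ± 0.11 at 4 h and by 1.46 ± 0.11 at 24 h (adjusted p of 2.84e-07 and 4.97e-06), in the same direction as the leading probe. Its rises differed by -0.26 ± 0.15 (adjusted p of 0.164). This difference was called in the deposited matrix (-0.29, adjusted p of 0.0173) and without LPS 24 h replicate 3 (-0.36, adjusted p of 0.0471). With normexp correction it was 0.02 (adjusted p of 0.937). The saline groups of Icam1 themselves differed. Saline 24 h was lower than saline 4 h by a log2 difference of -2.72 on the leading probe and of -0.57 on the other, so that the probes gave the same direction with sizes far apart. On the leading probe the groups ran from saline 24 h through LPS 24 h and saline 4 h to LPS 4 h with no overlap between neighbours. LPS 24 h therefore lay below saline 4 h there, by -1.67, whereas on the second probe it lay above it, by 0.89.

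Vcam1, the ligand of the integrin α4β1 on monocytes and lymphocytes, also rose at both times on both measured probes. The leading probe (A_51_P210956) lies at chr3:115813216-115813275 and the other (A_52_P520495) at chr3:115828953-115829012, both on the minus strand of mm9 and with starts 15737 bases apart. The second is shown because it gave the larger difference of the pair at both times and lies in the coding part.
Vcam1 A_52_P520495: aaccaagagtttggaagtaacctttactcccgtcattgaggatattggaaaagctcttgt

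The leading Vcam1 probe read 2.33, 2.12 and 2.23 on the saline 4 h arrays and 3.1, 3.0 and 3.08 on the LPS 4 h arrays. At 24 h it read 1.63, 1.67 and 1.66 with saline and 2.09, 2.09 and 2.21 with LPS. Within each time the groups were separate, while LPS 24 h and saline 4 h overlapped. The rise was 0.83 ± 0.06 at 4 h (1.78-fold, adjusted p of 4.21e-07) and 0.48 ± 0.06 at 24 h (1.39-fold, adjusted p of 0.000102). The response was smaller at 24 h, by a log2 difference of -0.36 ± 0.08 (adjusted p of 0.00257).

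The second Vcam1 probe gave 1.38 ± 0.04 at 4 h and 0.85 ± 0.04 at 24 h (adjusted p of 1.27e-09 and 1.20e-07), with a difference of -0.52 ± 0.05 between times (adjusted p of 1.14e-05). Both Vcam1 probes thus had the smaller rise at 24 h. A further Vcam1 probe (A_52_P462332), placed between them at chr3:115819972-115820031, was below background on all 12 arrays and is not counted. Saline 24 h was lower than saline 4 h by -0.57 on the leading and -0.53 on the second probe.

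**Figure D2:**
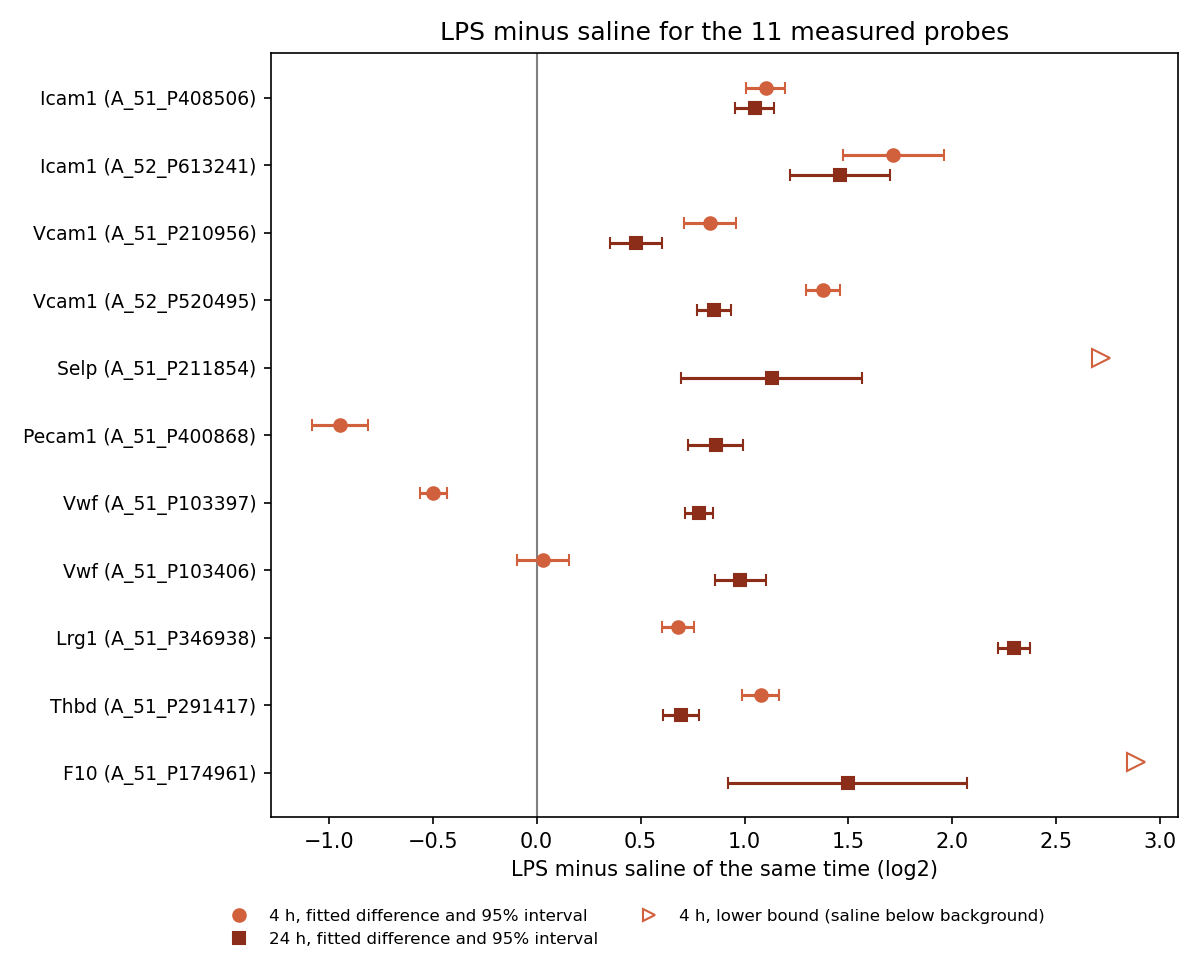
Log2 difference of LPS from saline of the same time (x axis) for each measured probe (y axis), with 95% intervals of the fit at 4 h (circles) and 24 h (squares). Open triangles are lower bounds for Selp and F10 at 4 h, where no saline array was above background. All 24 h values lie to the right of 0, that of F10 against saline readings at or below background, and at 4 h Pecam1 and the leading Vwf probe lie to the left.

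Of the selectins, Selp (P-selectin, stored with von Willebrand factor in endothelial granules and in platelets) went from below background to clearly measured. Its leading probe (A_51_P211854, chr1:166079660-166079719, plus strand) was well above background on 0 of 3 saline 4 h arrays, where it read -6.32, -5.65 and -6.29. It read -2.05, -1.96 and -2.04 on the LPS 4 h arrays, which corresponds to 163.8 ± 8.91 intensity units. The fitted difference at 4 h was 4.07 (adjusted p of 4.43e-08), a value that includes the saline readings below background. As a bound, which was not tested, the rise was at least 6.57-fold. Such a bound is the mean of the LPS arrays against, per saline array, the higher of the probe's own signal and the lowest signal called well above background there.

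At 24 h Selp was measured on all 6 arrays. The saline arrays read -4.74, -4.89 and -5.32 and the LPS arrays -3.75, -3.78 and -4.03, with no overlap. The rise was 1.13 ± 0.19, or 2.19-fold, with an adjusted p of 0.00119. Levels of Selp ran from saline 24 h through LPS 24 h to LPS 4 h, and no neighbours overlapped. Saline 4 h, below background, has only a bound and no place in this order. The fitted difference between the saline groups of Selp was 1.10 (adjusted p of 0.000407), and with normexp correction it was of opposite sign, -0.63 (adjusted p of 0.000106). The fitted response was smaller at 24 h by a log2 difference of -2.94 ± 0.27 (adjusted p of 7.25e-06), a value that includes the saline 4 h readings below background.

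The size of the Selp values depends on how background was handled. With normexp correction, which adds 50 intensity units before the logarithm, the differences were 1.10 at 4 h and 0.38 at 24 h, and in the deposited matrix 1.44 and 0.25, all with an adjusted p under 0.05. The other Selp probe (A_52_P57843) was above background on 1 array of LPS 24 h and on none of the other groups.

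Sele (E-selectin, made by activated endothelium) could not be followed. Its probe (A_51_P455326, chr1:165987726-165987785) was well above background on 1 of 3 LPS 4 h arrays and on 0 arrays of the other groups. The processed intensities were 13.4, 4.79 and 15.2 on the LPS 4 h arrays and 3.06, 3.05 and 3.15 on the saline 4 h arrays. At 24 h they were 2.41, 2.73 and 7.75 after LPS and 2.96, 2.22 and 2.47 after saline. Before scaling, all 3 LPS 4 h readings exceeded the saline 4 h readings. Relative to the array percentile they did not, with -5.71, -7.10 and -5.38 in LPS 4 h against -6.85, -6.92 and -6.90 in saline 4 h. A reading below background is only a bound, and no fold or test is given for Sele.

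Promoters of 5 of the 9 genes (F10, Icam1, Lrg1, Sele and Selp) were matched in the RefSeq promoter table of build GRCm38.p6, which holds 250 bases before to 50 after each start. They were searched for letters of the NF-κB motif, since this family of transcription factors is known to act on adhesion genes in endothelium. The strict form (3 G, any 3 letters, then TTCC), read on both strands, was in 5.6% of all 32851 promoters and in 1 of the 5 (Lrg1). The loose form (3 G, any 5 letters, then CC), which contains the strict one, was in 50.8% of promoters and in 5 of the 5. The form GGNNNTTCC, which lies inside the strict form, was added after the sequences were seen; it was in 18.5% of promoters and in 4 of the 5, all but F10. Stretches of the adhesion gene promoters are shown with capitals at the motif, GGNNNTTCC for Icam1 (chr9:21015760-21015859) and Sele (chr1:164048064-164048163) and the loose form for Selp (chr1:164115204-164115263), all on the plus strand.
Icam1: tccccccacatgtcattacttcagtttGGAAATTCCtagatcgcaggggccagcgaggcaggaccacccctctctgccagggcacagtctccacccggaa
Sele: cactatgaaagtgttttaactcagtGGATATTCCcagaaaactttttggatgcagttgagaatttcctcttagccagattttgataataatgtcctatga
Selp: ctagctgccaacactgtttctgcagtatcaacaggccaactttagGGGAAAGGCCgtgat

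In Icam1 the capital letters begin 153 bases before the start, in Sele 145 and in Selp 15. These matches are letters in a window, with the common form present in about as many promoters as lack it, and no binding was measured in these samples.

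Pecam1, the adhesion molecule of endothelial junctions that is also on platelets and leukocytes, moved in opposite directions at the times. Its measured probe (A_51_P400868) spans 1854 bases of the minus strand at chr11:106542389-106544242, so that its 60 letters come from separate genomic pieces joined in the mRNA. It is shown because it was the only member probe with that property.
Pecam1 A_51_P400868: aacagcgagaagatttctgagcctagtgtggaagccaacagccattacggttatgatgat

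The Pecam1 level was -2.86, -2.83 and -2.86 on the saline 4 h arrays and -3.86, -3.71 and -3.82 on the LPS 4 h arrays. At 24 h it was -2.81, -2.76 and -2.81 with saline and -1.83, -1.91 and -2.06 with LPS. LPS arrays were all below saline at 4 h and all above it at 24 h. Pecam1 fell by 0.95 ± 0.06 at 4 h (1.93-fold lower, adjusted p of 2.86e-07) and rose by 0.86 ± 0.06 at 24 h (1.82-fold, adjusted p of 3.18e-06). The responses differed by 1.81 ± 0.08 (adjusted p of 6.75e-08).

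The saline groups of Pecam1 differed by 0.06 ± 0.06 (adjusted p of 0.406, 95% interval -0.08 to 0.19), the smallest gap among the leading probes that were above background in both saline groups. The order was LPS 4 h, saline 4 h, saline 24 h and LPS 24 h. Before scaling, the mean intensity of Pecam1 was 50.7 ± 1.96 in saline 4 h and 47.7 ± 2.78 in LPS 4 h, so that the fall at 4 h is relative to the array percentile, which was higher in LPS 4 h. With normexp correction the fall was -0.49 (adjusted p of 0.0326), and in the deposited matrix it was -0.44 and the 24 h rise 0.49. The other Pecam1 probe (A_52_P349070), inside the span of the first, was below background on all arrays.

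Vwf, the platelet-tethering glycoprotein of endothelium and a carrier of factor VIII, had probes that differed at 4 h and moved together at 24 h. The leading probe (A_51_P103397) lies at chr6:125636551-125636610 and the other (A_51_P103406) 693 bases before it at chr6:125635858-125635917, both on the plus strand. The coding sequence of the second is given, since the 4 h result turns on which of them is read.
Vwf A_51_P103406: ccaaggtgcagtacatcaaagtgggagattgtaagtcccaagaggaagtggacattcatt

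On the leading Vwf probe saline 4 h arrays read 1.78, 1.80 and 1.81 and LPS 4 h arrays 1.29, 1.32 and 1.29. Saline 24 h arrays read 2.17, 2.22 and 2.23 and LPS 24 h arrays 3.03, 2.97 and 2.97. The level was below saline on every LPS array at 4 h and above it on every LPS array at 24 h. It fell by 0.50 ± 0.03 at 4 h (1.41-fold lower, adjusted p of 1.80e-07) and rose by 0.78 ± 0.03 at 24 h (1.72-fold, adjusted p of 4.88e-08). The responses differed by 1.28 ± 0.04 (adjusted p of 8.28e-09). Before scaling, the intensity of this probe was higher after LPS at 4 h on every array, with a mean of 1634 ± 83.3 against 1271 ± 56.1 with saline, so that the fall at 4 h is relative to the array percentile.

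The second Vwf probe read -1.59, -1.53 and -1.59 in saline 4 h and -1.5, -1.62 and -1.5 in LPS 4 h, and these groups overlapped. Its 4 h difference was 0.03 ± 0.05, with a 95% interval from -0.09 to 0.15 and an adjusted p of 0.634. That interval does not reach the fall on the leading probe. With normexp correction, quantile or median scaling and in the deposited matrix the 4 h difference of the second probe was between -0.14 and -0.02, with an adjusted p of at least 0.0776. At 24 h the second probe rose by 0.98 ± 0.05 (1.97-fold, adjusted p of 7.39e-07). A further Vwf probe (A_51_P206886) was below background on all arrays.

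Of genes with several measured probes, 6776 in all, 1162 had probes called in opposite directions at 4 h and 210 at 24 h, so that probes of a gene differing at 4 h was not confined to Vwf. Saline 24 h was above saline 4 h on both Vwf probes, by 0.41 ± 0.03 and 1.38 ± 0.05.

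Lrg1, a secreted leucine-rich glycoprotein made by venular endothelium and by liver and known to modulate TGF-β signalling in vessels, had the largest 24 h rise among the 7 genes measured on all saline 24 h arrays. Its probe (A_51_P346938) lies at chr17:56259257-56259316 on the minus strand. Saline 4 h arrays read 0.57, 0.57 and 0.62 and LPS 4 h arrays 1.26, 1.25 and 1.30. Saline 24 h arrays read -0.65, -0.64 and -0.62 and LPS 24 h arrays 1.72, 1.60 and 1.66. No pair of groups overlapped, and the order was saline 24 h, saline 4 h, LPS 4 h and LPS 24 h.

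The rise of Lrg1 was 0.68 ± 0.03 at 4 h (1.60-fold, adjusted p of 6.53e-08) and 2.30 ± 0.03 at 24 h (4.91-fold, adjusted p of 4.97e-10). The response was larger at 24 h by 1.62 ± 0.05 (adjusted p of 5.96e-09). The controls differed as well, saline 24 h lying below saline 4 h by a log2 difference of -1.22 ± 0.03. Against the saline arrays of the other time, Lrg1 was higher by 1.90 in LPS 4 h and by 1.07 in LPS 24 h, so that it rose with either control while the order of the times turned.

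Thbd encodes thrombomodulin, the thrombin receptor that starts the protein C anticoagulant path on endothelium. The probe (A_51_P291417) lies at chr2:148230235-148230294 on the minus strand. It read -1.29, -1.33 and -1.25 in saline 4 h and -0.24, -0.17 and -0.24 in LPS 4 h. At 24 h it read 0.26, 0.23 and 0.15 with saline and 0.93, 0.90 and 0.91 with LPS. The LPS arrays were higher at both times without overlap, and the level of LPS 4 h was below that of saline 24 h.

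Thbd rose by 1.08 ± 0.04 at 4 h (2.11-fold, adjusted p of 7.73e-09) and by 0.70 ± 0.04 at 24 h (1.62-fold, adjusted p of 7.42e-07). The responses differed by -0.38 ± 0.06 (adjusted p of 0.000165), a call that was lost with normexp correction (-0.14, adjusted p of 0.355) and in the deposited matrix (-0.16, adjusted p of 0.151). Saline 24 h was above saline 4 h by 1.51 ± 0.04, which exceeds the rise after LPS at either time. Against saline 24 h in place of saline 4 h, LPS 4 h was lower by a log2 difference of -0.43 (adjusted p of 4.67e-06).

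F10 encodes coagulation factor X, the serine protease whose active form makes thrombin from prothrombin and which is made mainly in liver. Its probe (A_51_P174961) lies at chr8:13055774-13055833 on the plus strand and is shown because the larger of the bounds at 4 h rests on it alone.
F10 A_51_P174961: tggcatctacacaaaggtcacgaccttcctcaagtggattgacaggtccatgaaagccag

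F10 was well above background on 0 of 3 saline 4 h arrays, with readings of -6.45, -5.80 and -7.00, and on all LPS 4 h arrays, with -1.84, -1.89 and -1.83. It was at least 7.38-fold higher with LPS at 4 h. At 24 h it was measured on 1 of 3 saline arrays (-6.58, -6.17 and -6.62) and on all LPS arrays (-4.86, -4.84 and -5.18). All LPS arrays lay above all saline arrays at both times, which the entry of the probe through its LPS arrays favours. The saline groups of F10 overlapped each other.

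The fitted 24 h difference of F10 was 1.5 and that between the responses -3.07. Both rest on saline readings at or below background, so that the size of the 24 h rise is not known. With quantile scaling the 24 h difference was 1.25. With normexp correction it was 0.30 and in the deposited matrix 0.21, and the 4 h differences were 1.31 and 1.71. With normexp correction the saline groups of F10 differed by -0.91, against -0.04 otherwise.

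The slides gave the same directions as the fit. Within the 3 slides of 4 h the LPS array exceeded its saline neighbour by 1.06 to 1.13 for the leading Icam1 probe, 0.75 to 0.98 for Vcam1, 0.64 to 0.72 for Lrg1 and 1.05 to 1.10 for Thbd. For Pecam1 the differences within slides ran from -1.04 to -0.84 and for the leading Vwf probe from -0.51 to -0.49. Within the 3 slides of 24 h all 10 probes other than that of F10 were higher with LPS on each slide, from 0.42 to 0.55 for the leading Vcam1 probe up to 2.24 to 2.37 for Lrg1. On the second Vwf probe the slides of 4 h differed in sign, from -0.03 to 0.09.

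The controls of the 2 times were set against each other because the responses are read from them. Of the 10 probes without F10, 4 were higher in saline 24 h, 5 lower and 1 passed in neither direction, in a comparison that called 79.5% of all probes, 38.0% higher and 41.5% lower. Among the 4 is Selp, whose saline 4 h arrays were below background. With the saline arrays of the other time as controls, LPS 4 h kept its direction for 6 of the 7 leading probes, Thbd being the exception. The second Vwf probe, which passed in neither direction with its own saline, was then lower at 4 h (-1.35, adjusted p of 1.44e-08). LPS 24 h kept its direction for 5 of the 7 leading probes, the exceptions being Icam1 (-1.67, adjusted p of 2.85e-10) and Vcam1 (-0.09, adjusted p of 0.14). The second probes of these genes stayed higher in LPS 24 h, by 0.89 for Icam1 (adjusted p of 2.76e-05) and 0.32 for Vcam1 (adjusted p of 1.67e-05). Pecam1 stood at -1.0 in LPS 4 h and 0.92 in LPS 24 h after this exchange.

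**Figure D3:**
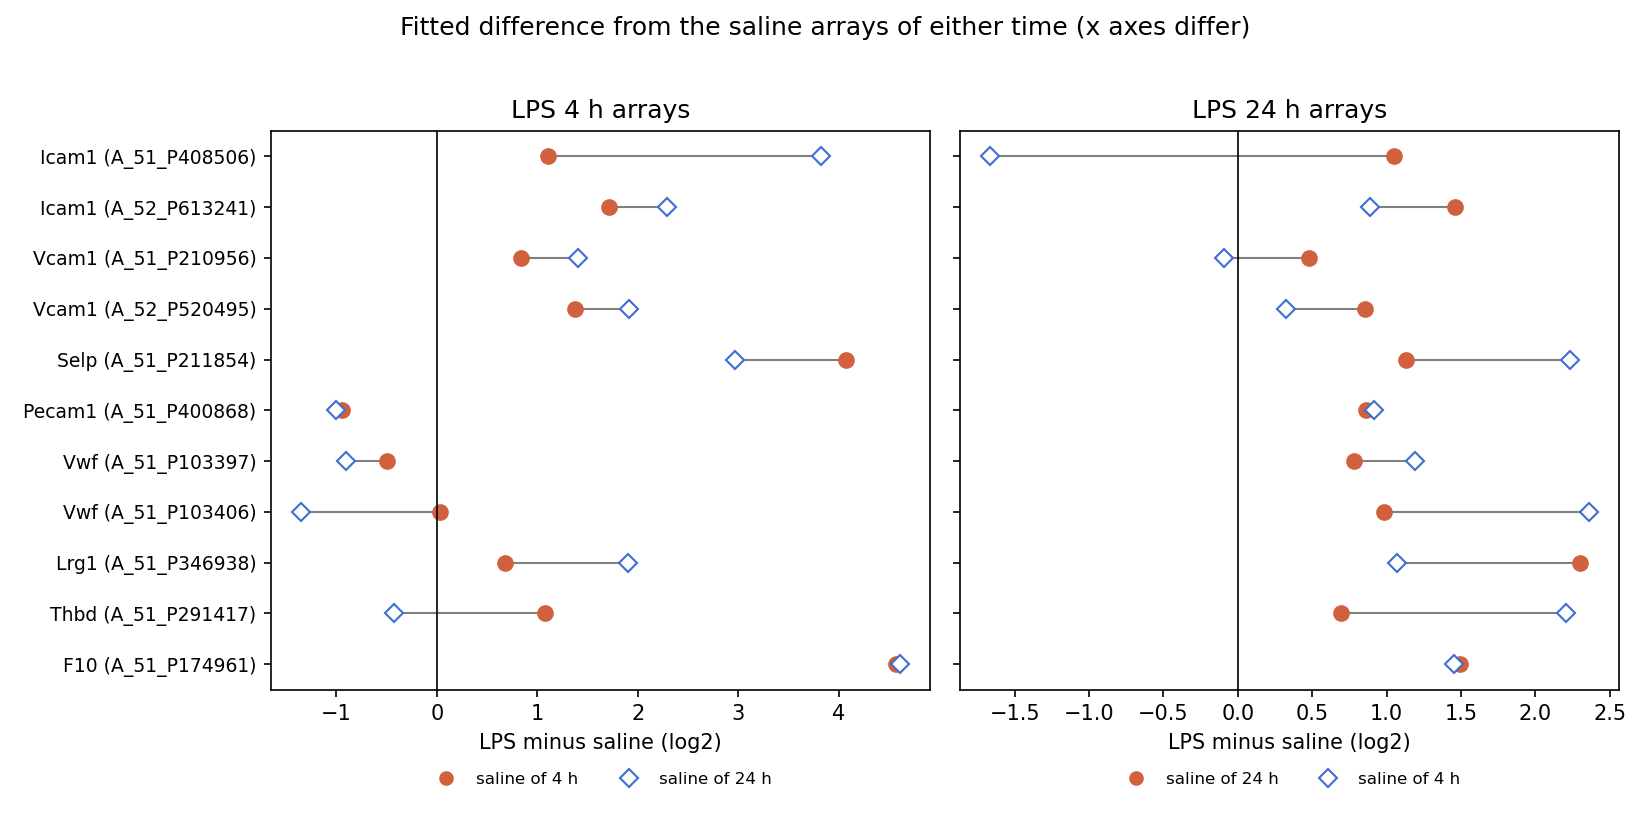
Fitted log2 difference (x axis) of LPS 4 h (left) and LPS 24 h (right) from the saline arrays of the same time (filled circles) and of the other time (open diamonds) for each measured probe (y axis). The symbols nearly coincide for Pecam1. They lie on opposite sides of 0 for Thbd and the second Vwf probe at 4 h and for the leading Icam1 and Vcam1 probes at 24 h, and for F10, as for Selp in saline 4 h, the saline arrays were at or below background.

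Several genes outside the list followed the members closely over the 12 arrays. Likeness was the root mean square difference in log2 units between profiles centred on their own means, among 15046 genes with a plain symbol. Nearest to the leading Vwf probe was Nos3, the endothelial nitric oxide synthase, at 0.0465, with -0.51 at 4 h and 0.77 at 24 h, followed by Dbh at 0.139 and Olfr346 at 0.141. The mean of Olfr346 in saline 4 h was -6.99, a level at which member probes were below background. Nearest to Icam1 were Bcl3, a nuclear relative of the IκB proteins, at 0.0937 and Ch25h, cholesterol 25-hydroxylase, at 0.0956, then Maff at 0.193. Vcam1 was followed by Txnip at 0.0921, Gfpt2 at 0.102 and Il13ra1 at 0.104. Pecam1 had Pam at 0.120, Asic4 at 0.129 and Tmem88 at 0.133.

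The remaining members had more distant neighbours. Selp was nearest to S100a9, a calcium-binding protein of neutrophils, at 0.269, then to Apol10b and Pim1. F10 was nearest to Gbp4, an interferon-induced GTPase, at 0.299, then to Mcoln2 and Rsad2. Lrg1 was nearest to Apoc2 at 0.194, Fcgr4 at 0.202 and Ifitm3 at 0.211, and Thbd to Ubxn11 at 0.163, Nfya at 0.168 and Arhgef1 at 0.178. In saline 4 h the means of Apol10b, Pim1 and Mcoln2 were -6.26, -6.46 and -6.76, as low as the readings of Selp and F10 below background there. Likeness to Selp and F10 therefore rests in part on such readings. These distances describe 12 arrays in 4 groups and carry no test.

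The partners of the adhesion molecules were split at 4 h and mostly higher at 24 h. Of 19 selectin ligands and integrins, 8 rose, 7 fell and 4 passed in neither direction at 4 h, with a median of 0.10 against -0.15 over all genes. At 24 h 14 rose and 1 fell, with a median of 0.45 against 0.00. Over all genes 29.1% rose and 44.3% fell at 4 h, and 22.8% rose and 22.0% fell at 24 h. At 4 h the smallest adjusted p belonged to Itgax, an integrin subunit of dendritic cells and macrophages, which rose by 0.98 ± 0.04. Podxl, a sialomucin of endothelium, then fell by 1.35 ± 0.05, Cd44 rose by 0.94 ± 0.04, and Itgam, the α chain of the Mac-1 receptor for ICAM-1, fell by 0.57 ± 0.03. At 24 h Itgam rose by 0.74 ± 0.03, Cd44 by 0.71 ± 0.04 and Itgb1 by 0.39 ± 0.03, while Itgax fell by 0.87 ± 0.04. Without the 2 genes measured only through LPS groups, 6 rose and 7 fell at 4 h and 13 rose and 1 fell at 24 h.

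Of 16 genes of junctional adhesion and transmigration, 6 rose and 7 fell at 4 h, and 9 rose and 2 fell at 24 h, with medians of -0.02 and 0.24. The 4 h counts are not far from the shares over all genes, 29.1% higher and 44.3% lower. At 24 h those shares were 22.8% and 22.0%. Cdh5, the cadherin of endothelial junctions, rose by 1.04 ± 0.04 at 4 h while Pecam1 fell. Pvr rose by 0.85 ± 0.04, and Mcam and Jam3 fell by 0.79 ± 0.03 and 0.62 ± 0.04. At 24 h Icam2 rose by 0.81 ± 0.06, Esam by 0.68 ± 0.03 and Cd99 by 0.41 ± 0.03, and the neuronal Icam5 fell by 0.40 ± 0.03.

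Of 21 genes of the coagulation cascade other than F10, 14 were measured, of which 7 rose and 2 fell at 4 h and 6 rose and 0 fell at 24 h. Their medians were 0.26 at 4 h and 0.23 at 24 h, against -0.15 and 0.00 over all genes. Of all genes, 29.1% rose and 44.3% fell at 4 h, and 22.8% rose and 22.0% fell at 24 h. F2r, the thrombin receptor, rose by 1.33 ± 0.05 at 4 h, and Ggcx, the carboxylase that acts on vitamin K-dependent factors such as factor X, by 0.84 ± 0.07. Vkorc1, which recycles vitamin K, fell by 0.74 ± 0.04, and Fgg, a fibrinogen chain, was at least 1.07-fold higher from below background. At 24 h F5, the cofactor of factor X, rose by 0.89 ± 0.07, F13a1 by 0.86 ± 0.07, Fgb by 1.65 ± 0.19 and Vkorc1 by 0.23 ± 0.04. F8, Fgg and F2rl3 were measured only through LPS groups, and without them 6 rose and 2 fell at 4 h.

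Of 23 anticoagulant and fibrinolytic genes other than Thbd, 20 were measured, of which 6 rose and 6 fell at 4 h and 13 rose and 1 fell at 24 h, with medians of -0.10 and 0.38. All genes together had 29.1% higher and 44.3% lower at 4 h, and 22.8% and 22.0% at 24 h. At 4 h Plaur, the urokinase receptor, rose by 1.65 ± 0.05 and Entpd1 by 0.76 ± 0.04, and Serpind1 fell by 0.92 ± 0.04. At 24 h Serping1, the C1 inhibitor, rose by 1.15 ± 0.03 and Anxa2 by 1.03 ± 0.04. Pros1, protein S, the cofactor of the pathway that thrombomodulin starts, rose by 0.72 ± 0.04, and Serpinf2 by 0.45 ± 0.03. Plg was measured only through LPS groups, and without it 12 rose at 24 h.

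**Figure D4:**
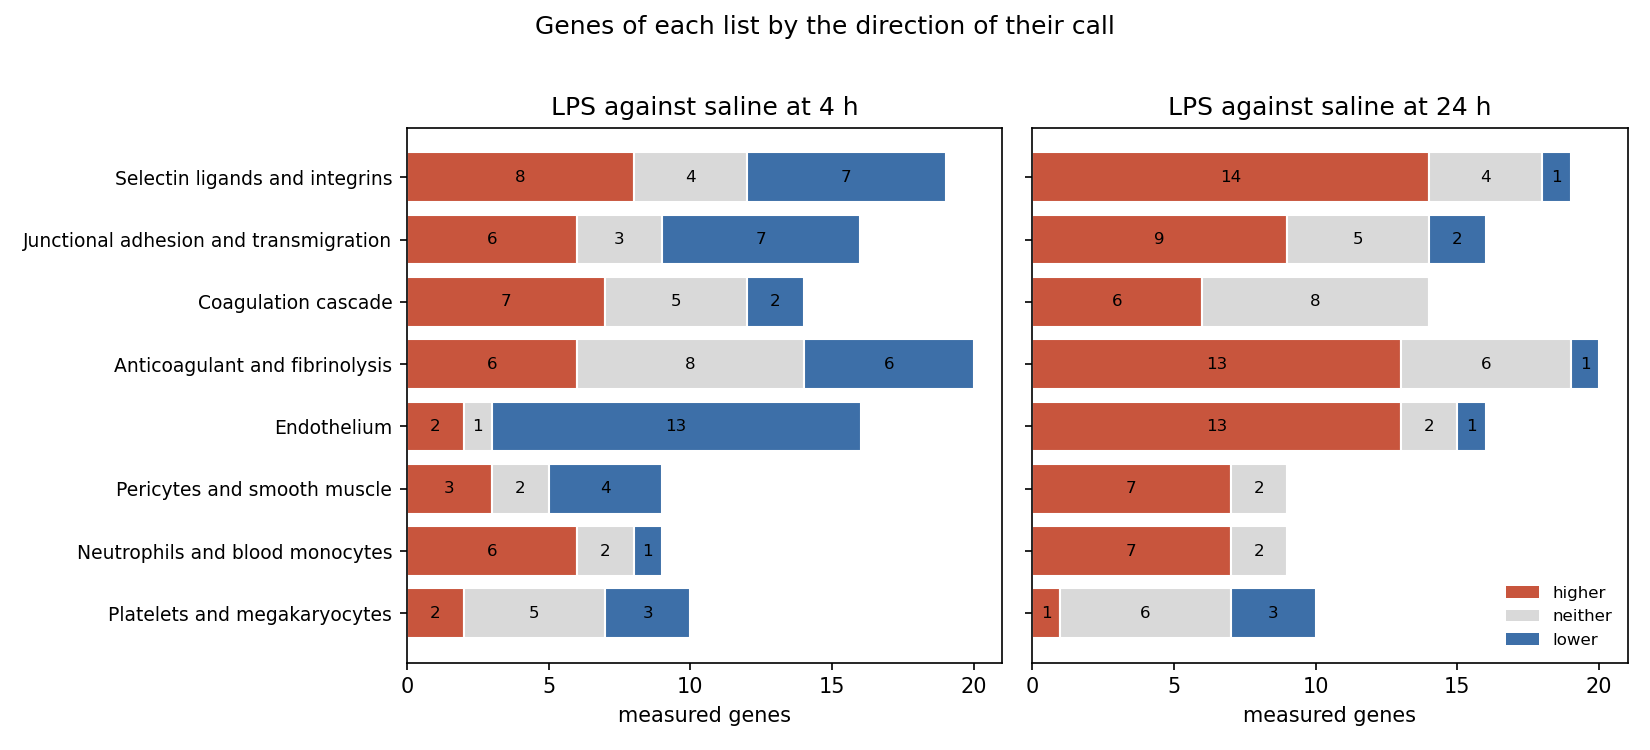
Number of measured genes (x axis) called higher, lower or in neither direction after LPS at 4 h (left) and 24 h (right) in 4 pathway lists and 4 cell type marker lists (y axis). At 4 h 13 of 16 endothelial markers were lower, where 44.3% of all genes were, and at 24 h 13 of 16 were higher, where 22.8% of all genes were. The 13 lower at 4 h include Abcb1a, whose readings in both 4 h groups were below background.

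Markers of endothelium moved with Pecam1 and the leading Vwf probe, while at 4 h the second Vwf probe did not pass the test. All 16 markers were measured. At 4 h 13 fell, from -0.31 ± 0.05 for Slc2a1 to -3.08 ± 0.07 for Cldn5, a tight junction claudin, and 2 rose, Cdh5 and Eng. These falls are relative to the array percentile, which was higher in LPS 4 h, so that a small one need not be a fall in intensity. Among the 13 is Abcb1a, above background on 0 arrays of saline 4 h and 0 of LPS 4 h, so that its call rests on readings below background. At 24 h 13 rose, 1 fell and 2 passed in neither direction. Over all genes 29.1% rose and 44.3% fell at 4 h, and 22.8% rose and 22.0% fell at 24 h. The summed linear signal of the 16, in units of the array percentile, went from 130.8 to 131.8 with saline at 4 h to between 79.1 and 80.4 with LPS. At 24 h it was 62.3 to 63.5 with saline and 75.6 to 77.2 with LPS.

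Other lists changed on this scale too. Their counts are small and stand beside shares over all genes of 29.1% higher and 44.3% lower at 4 h. At 24 h the shares were 22.8% and 22.0%. Of 8 microglia markers, 6 fell and 1 rose at 4 h and 6 rose and 1 fell at 24 h. Their summed signal was 202 to 210.4 with saline and 149 to 157.7 with LPS at 4 h, and 72.2 to 77.7 and 95.2 to 98.1 at 24 h. Of 6 thalamus markers, 3 fell and 2 rose at 4 h and 6 rose at 24 h, with sums of 15.2 to 15.8 against 10.73 to 10.85 at 4 h and of 5.71 to 5.75 against 8.26 to 8.38 at 24 h. Of 9 pericyte and smooth muscle markers, 4 fell and 3 rose at 4 h and 7 rose at 24 h, and of 6 measured choroid plexus markers 3 fell and 2 rose at 4 h and 4 rose at 24 h. Astrocytes had 4 of 9 markers higher and 4 lower at 4 h, and 6 higher and 2 lower at 24 h. Markers of hippocampal neurons went the other way, with 5 of 10 higher and 1 lower at 4 h and 6 lower at 24 h. Of 7 meningeal fibroblast markers, 3 rose and 4 fell at 4 h, and 2 rose and 2 fell at 24 h. In whole tissue, fewer cells of a type and less RNA per cell cannot be told apart, and the part of the tissue's cell content in the members' values was not tested.

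Markers of blood cells and hepatocytes were counted in the same way. Their counts are small and stand beside 29.1% of all genes higher and 44.3% lower at 4 h, and 22.8% and 22.0% at 24 h. Of 13 neutrophil and blood monocyte markers, 9 were measured, of which 6 rose and 1 fell at 4 h and 7 rose and 0 fell at 24 h. Without the 4 measured only through LPS groups, 3 rose and 1 fell at 4 h and 4 rose at 24 h. At 4 h their summed signal was 20.2 to 20.4 with saline and 25.2 to 26.1 with LPS. At 24 h it was 9.92 to 10.6 with saline and 21.5 to 23.3 with LPS. Most of this sum is the signal of a single gene, Ly6c2, so that it says little about the other markers. Ly6c2 was not called at 4 h (-0.03, adjusted p of 0.591), where S100a9 rose by 3.71 ± 0.05. Its 24 h rise of 1.16 ± 0.04 was close to that of Ly6c1, from the endothelial list, at 1.18 ± 0.04. Whether the 24 h rise of the sum came from blood cells was not tested. Ly6g, Elane, Camp and Ccr2 were not measured. Of 12 platelet markers, 10 were measured, 2 higher and 3 lower at 4 h and 1 higher and 3 lower at 24 h, with a summed signal of 1.91 to 3.13 over all arrays. Of 4 measured red cell markers, 3 were lower at each time. Of 8 hepatocyte markers, Alb, Apoa1, Ahsg and Serpina1a were not measured and 4 were. Of these, at 4 h F2 (prothrombin) was called higher, with saline 4 h below background, and Ttr, which choroid plexus also makes, and Apoa2 were called lower. Apoa2 was above background on 1 of 3 saline 4 h arrays and on 0 LPS 4 h arrays, so that its call rests on readings near background. At 24 h Apoc3, an apolipoprotein above background on all 12 arrays, rose by 0.68 ± 0.08 (adjusted p of 0.000124). The part of blood cells in the values of Selp, Pecam1, Vwf and F10 was not tested.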

How the data were processed

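Per the labels' protocols, Cy3-labelled RNA of each of 12 hippocampal samples went on a one-colour Agilent array. The deposited files give fluorescence intensity per spot. Background was subtracted and dim signals were replaced with a surrogate by Agilent Feature Extraction 10.7.3.1, per the file headers; the submitters' processing notes name version 9.1. The deposited matrix holds log2 values, which were recomputed here from the deposited mean and background intensities by normexp correction (offset 50) and quantile normalization, keeping the first spot of a probe, with a largest difference of 4.48e-10.

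From log2 of the processed intensity, without outlier spots (4 of 516 spots of the members), the mean over repeated spots was taken and the array's 75th percentile subtracted. Of 41174 probes, 27681 entered, each well above background on every array of some group. Means of 4 groups were fitted over 12 arrays with limma 3.58.1 in R 4.3.3, two-sided, with Benjamini-Hochberg adjustment over all probes; each list gene was taken by its brightest probe. LPS was compared with saline within each time, these responses with each other, and the saline groups with each other.

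Replicate numbers did not pair the samples at 4 h: same-numbered LPS and saline arrays lay on different slides and correlated at -0.15 to 0.17 in their deviations from group means. At 24 h same-numbered arrays shared a slide, with weak correlations of 0.03 to 0.08. Slides were tried as a block. As alternatives, other choices were tried for scaling, background correction, filter, probe rule, blocks, moderation, threshold, arrays in the fit, and controls, along with the deposited matrix and leaving out each array. The code was tested on simulated data. The members and lists were chosen with earlier results of these data known. Named list genes are the 4 with the smallest adjusted p per list and time, of which 1 is not reported here, and likeness names the 3 nearest genes. Positions are on mm9, the build in the files, except promoters. Coding position of the printed probes is textbook knowledge of these transcripts and was not read from an annotation.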

Additional observations from a re-analysis of the deposited data

Results flagged for a closer look

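For 6 of the 7 genes with a measured saline group, the response to LPS at 24 h differed from that at 4 h by the test of the difference itself (limma, adjusted p under 0.05), in a comparison that called 68.5% of all genes. The log2 differences, 24 h minus 4 h, were 1.81 for Pecam1, which moved in opposite directions at the 2 times, and 1.62 for Lrg1. For the leading Vwf probe, which fell at 4 h and rose at 24 h, the difference was 1.28. The second Vwf probe rose at 24 h and did not pass the test at 4 h (0.03, adjusted p of 0.634). The differences were -0.36 for Vcam1 and -0.38 for Thbd, which rose at both times. For Selp the value was -2.94, with saline 4 h arrays below background. The fitted -3.07 of F10 is given as a value alone, since its saline arrays were at or below background at both times.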

How the results depend on the processing

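Of 648 recomputed values for 32 results of the leading probes, 630 kept their direction and side of the threshold, 13 changed sign, 3 lost the call and 2 gained it. The tally includes F10, for which a call is not read as a test. Settings that change only the filter, block, moderation or threshold left the log2 difference as it was, so that its direction could not turn there. With the saline arrays of the other time, Thbd at 4 h became -0.43, Icam1 at 24 h -1.67 and Vcam1 at 24 h -0.0947. The remaining sign changes concern differences that missed the threshold, apart from that of Selp between saline groups (-0.63 with normexp). They were Pecam1 between saline groups (-0.35 with normexp, -0.0842 with quantile scaling, -0.13 with median scaling, -0.0531 in the deposited matrix), Icam1 between times (0.016 with median scaling) and F10 between saline groups (0.18 with quantile scaling; from -0.337 to 0.265 when 1 array was left out, with 0.265 without saline 4 h replicate 2 and 0.0191 and 0.0362 without saline 24 h replicates 1 and 3). Icam1 between times was called with quantile scaling (-0.19, adjusted p of 0.0194), and F10 between saline groups with normexp (-0.91). The lost calls were Thbd between times (-0.144 with normexp, -0.159 in the deposited matrix) and F10 at 24 h (1.25 with quantile scaling). The causes were not tested. F10 and Selp gave no value when a probe had to be above background on all 12 arrays.

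The numbers of called probes were 19659 at 4 h, 11547 at 24 h, 18251 for the difference and 22001 between saline groups. With normexp the first 3 were 11983, 4100 and 10147. With the mean of a gene's probes, which tests fewer features, they were 12810, 7694, 11930 and 14318, and with the other saline arrays the 24 h number was 22122. Leaving out 1 array gave 18731 to 19286, 9993 to 11279, 17528 to 18237 and 21181 to 21560. With the replicate number as a block, which matches the slide at 24 h but not at 4 h, they were 19382, 10864, 17937 and 21781, and no call of a member changed. The split into higher and lower moved with scaling: with the array median it was 6605 and 13556 at 4 h (8757 and 10902 otherwise), 3836 and 8996 at 24 h (5754 and 5793), and 8465 and 13383 between saline groups (10508 and 11493), where normexp gave 5562 and 15475. Median scaling moved the median log2 difference of all probes from -0.0814 to -0.249 at 4 h and from -0.0199 to -0.204 between saline groups, where normexp gave -0.426. Signal over background limits Sele, Selp and F10.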
